A study of Rattus norvegicus with 2 samples.

Results

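The expression of 10 circadian clock genes, Per1, Per2, Per3, Cry1, Cry2, Arntl, Clock, Nr1d1, Nr1d2 and Dbp, was compared between the cervical lymph nodes of control (C) and restraint-stressed (RS) rats. The genes were chosen by name, as the core clock loop and its outputs, with earlier results of these data known. Every noncontrol probe that the array design assigns to them was used. They were represented by 16 of 45598 probes, and all 10 genes were among the 21096 screened genes, those with a signal well above background on 1 array or on both. Cervical lymph nodes are secondary lymphoid organs of the neck. Both groups were male Sprague-Dawley rats aged 10 to 12 weeks, with no transgene or drug named in the labels, and the methods give halothane anesthesia and a pentobarbital overdose for every group. Per the methods, the RS group had been restrained by fixing the limbs to a board with the animal on its back, while the C group was not restrained. The recorded scan predates the period of experiments that the paper gives. It is therefore not known whether these methods describe the animals of these arrays. Each group was measured on 1 Agilent 1-color array, so that no replicate check or test was possible, and each difference describes these 2 arrays. The sources used here do not say from how many rats each RNA was taken.

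The circadian clock is a feedback loop of transcription factors that runs in nearly every cell. BMAL1 (the product of Arntl) and CLOCK bind E-box elements and turn on the Per and Cry genes, whose proteins accumulate and repress BMAL1 and CLOCK. The same pair turns on Nr1d1 and Nr1d2, which encode the repressors REV-ERB alpha and beta of Arntl, and Dbp, which encodes an activator that binds D-box elements. Per1 and Per2 are also known as genes that glucocorticoids and cAMP signaling can switch on within a short time, and lymphocytes and macrophages carry clocks of their own. Clock transcripts change with the hour of the day. The methods place restraint and euthanasia of all groups within a span of several hours of the light phase. The hour for each array is not given in the sources used here, so that hour and restraint cannot be told apart.

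The sequences that bear on the results are the probes of the Per genes that differed most and the probe of Arntl. For each, 30 of the 60 probe bases are shown. Capitals mark a run of alternating A and G bases, a feature that went with lower signal on the RS array across all genes and is described with the values of Arntl. The Per stretches hold no such run and are shown from their first base, and the Arntl stretch starts at base 24. The build named in the file headers is rn4.
Per1 probe 1, chr10:55869174-55869233, plus strand: aggtgggacccaggtgttctcagctctacc
Per1 probe 2, chr10:55867840-55868424, plus strand: cagctgcctcaggccctcgatgtaacggct
Per2 probe, chr9:90645610-90645669, minus strand: tgttaactgctaagaagttgacttcctagg
Arntl probe, chr1:171161969-171162028, plus strand: ttactggataggGAGAGAacagcttttatg
The second Per1 probe spanned 585 bases of the genome for its 60 bases, so that it lay across an intron. Exon and intron annotation of rn4 was not used here.

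Among the clock genes, 2 were 2-fold or more higher on the RS array, Per1 and Per2, and none was 2-fold or more lower. Over all screened genes, 3.46% were 2-fold or more higher and 4.28% were 2-fold or more lower. The median difference (RS minus C, log2) was 0.12 over the 10 clock genes and 0.016 over all screened genes, and 8 clock genes lay above 0 and 2 below, beside 52.1% of screened genes above 0. Of those above 0, Per3, Cry2, Clock and Dbp differed by less than their spot errors at their brightest probes. All of these but Dbp fell below 0 in some alternative settings. By the brightest probe, the difference exceeded the 95% range of the spot error in 5 clock genes and in 21.2% of all screened genes. Of the 5, Per1, Per2, Cry1 and Nr1d2 were higher and Arntl was lower. The second Dbp probe, printed in 10 spots on each array, also exceeded that range, at 0.28 ± 0.06 (spot error). The spot error is the error that the scanner software gives for a spot, combined over both arrays. It covers the spot measurement and neither animals nor labeling.

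**Figure D1:**
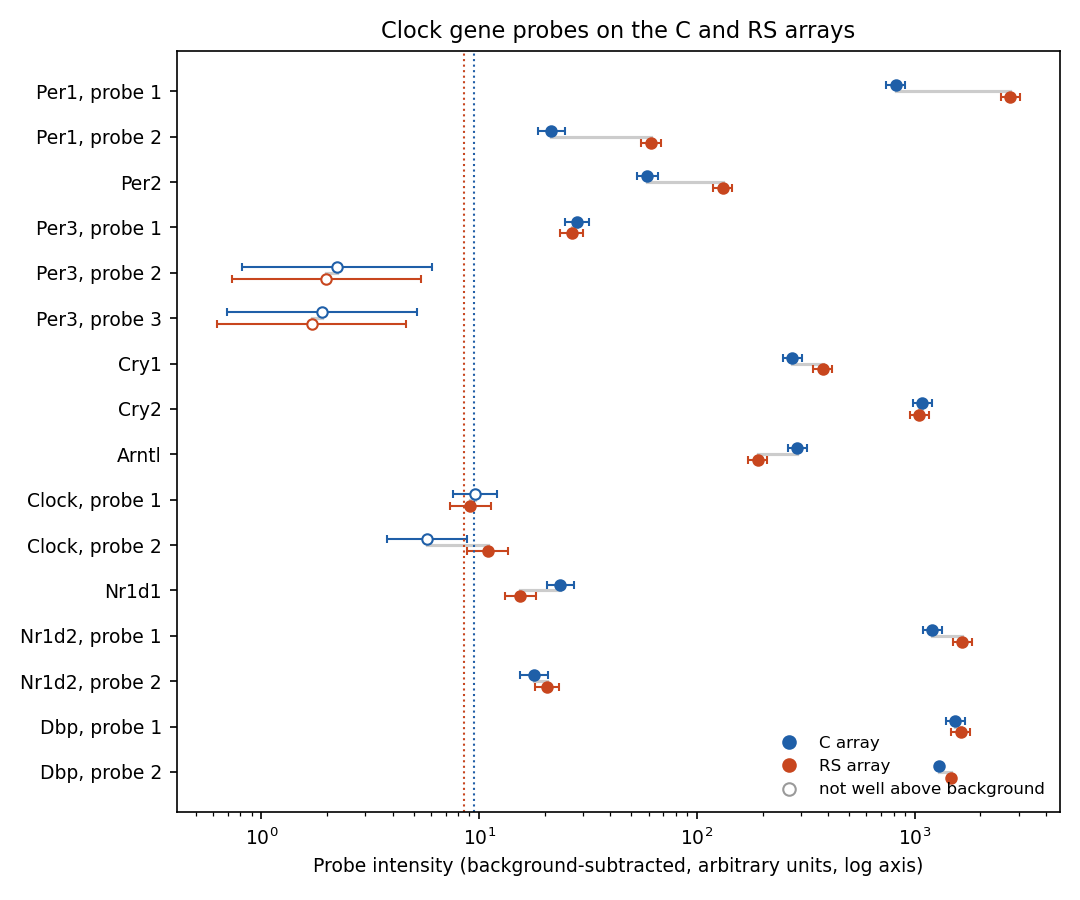
Background-subtracted intensity (log axis, arbitrary units) of the 16 probes of the 10 clock genes on the C array (blue) and the RS array (orange), with the spot error of each array as bars and probes not well above background as open circles. Dotted lines mark the lowest intensity well above background, 9.45 for C and 8.52 for RS, and both Per1 probes and the Per2 probe sit clearly to the right on the RS array.

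Per1 encodes a repressor of the loop and is its quickly induced member. Its brighter probe gave 818 on the C array and 2742 on the RS array. This was 3.59-fold higher on the RS array, a log2 difference of 1.84 ± 0.20. (spot error) The second Per1 probe, which lies across an intron, gave 21.5 on the C array and 61.8 on the RS array. It showed the same direction and a similar size, a log2 difference of 1.62 ± 0.26. (spot error) Per1 ranked 207th from the highest of the 21096 screened genes, within the upper 0.981%. It lay in the brightest of 4 signal quartiles, in which 1.52% of the genes were 2-fold or more higher. Per1 stayed past 2-fold in all 13 alternative settings, with log2 differences from 1.73 to 1.87. Some of these settings, such as those that only changed the background filter, could not alter its value.

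Genes next to Per1 did not share this size of difference. Within 30 kb of its probes, Vamp2, which encodes a vesicle fusion protein, differed by 0.05 on the log2 scale and Hes7, a somite oscillator gene, by -0.01. CB547577, a transcript known here by its sequence identifier, gave 13.0 on the C array and 5.74 on the RS array, well above background in C alone.

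Per2 encodes the closely related repressor. Its only probe gave 59.2 on the C array and 131 on the RS array. This was 2.37-fold higher, a log2 difference of 1.24 ± 0.21 (spot error), and ranked 496th. The probe was dim, in the second-lowest signal quartile, in which 3.79% of genes were 2-fold or more higher. With the normexp background correction, which adds an offset and draws in the differences of dim probes, the log2 difference of Per2 was 0.75 and the gene was no longer past 2-fold. Hes6, a neighbor of Per2 within 30 kb, differed by -0.27 on the log2 scale.

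Per3, the third Per gene, is regarded as dispensable for the core loop. Its brightest probe gave 28.2 on the C array and 26.5 on the RS array. After scaling these values differed by 0.0097 on the log2 scale with a spot error of 0.26, and the sign turned in 4 of the 13 alternatives. The other 2 Per3 probes were at background on both arrays, with intensities from 1.70 to 2.22. The Per genes therefore split on these arrays, Per1 and Per2 higher and Per3 without a difference beyond its spot error.

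Cry1 and Cry2 encode the partner repressors, of which CRY1 is the stronger. Cry1 gave 273 on the C array and 378 on the RS array. This was 1.48-fold higher, a log2 difference of 0.57 ± 0.20 (spot error), and ranked 1787th. Cry2 gave 1082 on the C array and 1051 on the RS array, a log2 difference of 0.06 ± 0.20. (spot error) after scaling Without normalization between the arrays the Cry2 difference was -0.04. Cry1 was thus higher by more than its spot error, and Cry2 was not.

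Arntl encodes BMAL1, the activator on which the loop depends. Its only probe gave 288 on the C array and 190 on the RS array. It was 1.42-fold higher on the C array, a log2 difference (RS minus C) of -0.50 ± 0.20 (spot error), so that Arntl differed in the direction opposite to Per1. The gap between the differences of Per1 and Arntl was 2.35 on the log2 scale. Arntl kept its sign under all 12 alternatives that gave it a value, with differences from -0.60 to -0.44. As for Per1, the alternatives that only changed the background filter could not alter the value of Arntl.

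The Arntl probe was the only one of the 16 clock gene probes with an alternating A and G run of at least 6 bases, shown in capitals above. Of all screened genes, 4.80% were measured by a probe with such a run. Where the run was 6 or 7 bases long, as in Arntl, the median log2 difference was -0.27 over 852 genes, and 40.3% of them lay as low as Arntl or lower. Where there was no such run, the median was 0.024 over 20083 genes, and 8.27% lay as low. Where the run was 8 bases or longer, the median was -2.79 over 161 genes. The part of this feature in the difference of Arntl was not tested, and no second Arntl probe was on the array. These probe classes were formed after the data had been seen.

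**Figure D2:**
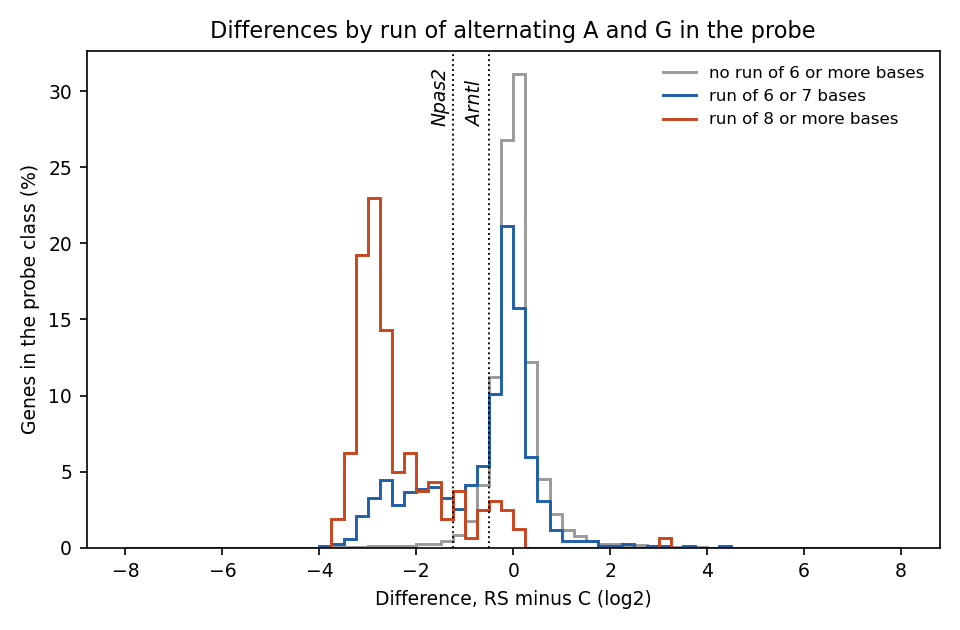
Share of genes (%) by log2 difference (RS minus C) in bins of 0.25, for genes whose probe holds no alternating A and G run of at least 6 bases (grey), a run of 6 or 7 (blue) or a longer run (orange). Dotted lines mark Arntl at -0.50 and Npas2 at -1.24, both measured by a probe with a run of 6, and the blue curve has a long tail toward lower values, where 31.0% of the genes are 2-fold or more lower against 2.46% under the grey curve.

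Clock, which encodes the partner of BMAL1, was near the limit of detection. Its brighter probe gave 9.56 on the C array, where it did not clear background, and 9.12 on the RS array, with a scaled difference of 0.03 on the log2 scale and a spot error of 0.46. The other Clock probe gave 5.74 on the C array, not well above background, and 10.9 on the RS array. Against the lowest C intensity well above background, the scaled log2 difference was 0.31, less than its spot error of 0.69. That intensity is no firm limit, since the brighter Clock probe exceeded it on the C array without clearing background. The Clock difference was below 0 in 2 alternatives, and no direction was given to it.

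The REV-ERB genes lay on opposite sides of 0. Nr1d1 gave 23.6 on the C array and 15.5 on the RS array, a log2 difference of -0.51. Its spot error was 0.32, and the difference did not pass the 95% range of that error. The normexp correction left a difference of -0.06. Nr1d2 gave 1206 on the C array and 1657 on the RS array, 1.47-fold higher, with a log2 difference of 0.56 ± 0.20. (spot error) The second Nr1d2 probe gave 17.9 on the C array and 20.5 on the RS array, a difference of 0.29 ± 0.29 (spot error). Both Nr1d2 probes were thus higher on the RS array, the dimmer one by about its spot error. The files give no chromosome position for the Nr1d2 probes.

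Dbp is an output gene that the clock drives directly. Its brightest probe gave 1538 on the C array and 1629 on the RS array, a log2 difference of 0.18 ± 0.20. (spot error) The second Dbp probe was printed in 10 spots on each array. Its spots ran from 1215 to 1345 with a median of 1278 on the C array, and from 1382 to 1574 with a median of 1471 on the RS array. The spots of the 2 arrays did not overlap, with a difference of the means of 0.28 on the log2 scale and an SD between spots of 0.05 on each array. How often the spots of other repeat probes separate in this way is not given here, so the separation is not read as particular to Dbp. Repeat spots of 1 array share 1 labeled RNA, so that their spread is that of the spot measurement and not that of the animals.

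**Figure D3:**
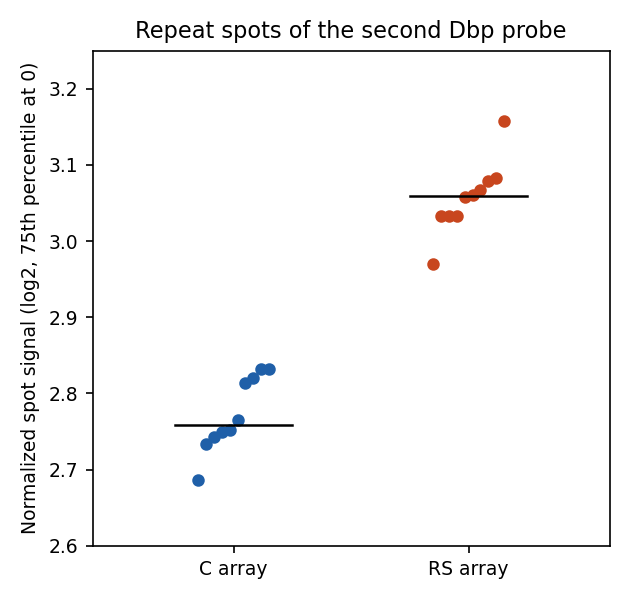
Normalized log2 signal (75th percentile of the array at 0) of the 10 spots of the second Dbp probe on each array, with the median as a black line. The C spots lie between 2.69 and 2.83 and the RS spots between 2.97 and 3.16, without overlap.

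**Figure D4:**
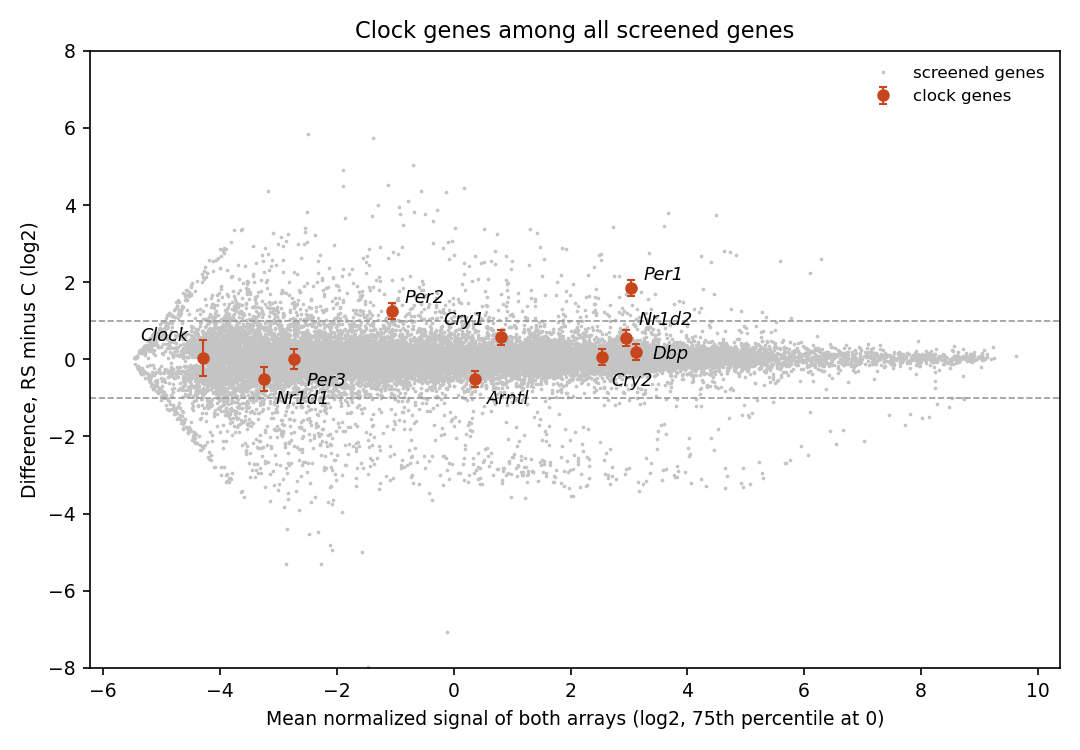
Log2 difference (RS minus C) against the mean normalized log2 signal of both arrays for all screened genes with a value (grey) and the 10 clock genes (orange, spot errors as bars). Dashed lines mark 2-fold, and Per1 at 1.84 and Per2 at 1.24 are the clock genes beyond them.

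The rest of the clock network was described over 38 further genes in 5 lists by role, which were chosen with earlier results of these data known. Of these, 31 were screened. On the RS array, 4 were 2-fold or more higher and 1 was 2-fold or more lower, beside 3.46% and 4.28% of all screened genes, and the median log2 difference was 0.08. Hlf, Fbxl21 and Kat2b did not match a gene name of the files, and Arntl2, Rorb and Lonrf3 were not well above background.

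The other E-box driven repressors differed in opposite directions. Bhlhe40, which encodes the repressor DEC1, gave 59.3 on the C array and 137 on the RS array, 2.47-fold higher, with a log2 difference of 1.31 ± 0.21. (spot error) As for Per2, the difference of Bhlhe40 was under 2-fold with the normexp correction, at 0.81. Its paralog Bhlhe41, which encodes DEC2, gave 1606 on the C array and 988 on the RS array, a log2 difference of -0.60 ± 0.20. (spot error) Tef, a D-box activator related to Dbp, differed by 0.33. Ciart, a further repressor of the loop, differed by 0.18 at its brightest probe, which gave 4985 and 5291. Its probes did not all behave alike, since 1 of its 5 gave 78.3 on the C array and a background reading of 6.93 on the RS array.

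In the positive limb, Npas2, a paralog of Clock, was the network gene lower on the RS array by 2-fold or more. It gave 44.7 on the C array and 17.7 on the RS array, a log2 difference of -1.24 ± 0.27. (spot error) Its only probe held a run of 6 alternating A and G bases, as the probe of Arntl did, and bases 23 to 52 are shown for that reason, with the run in capitals.
Npas2 probe: ttccgaattcctGAGAGAcatcttagacta
The normexp correction left a difference of -0.32 for Npas2. Nfil3, which encodes a repressor at D-box elements that opposes DBP, gave 40.0 on the C array and 74.9 on the RS array, a log2 difference of 1.0035 that lay at the 2-fold threshold and under it in 4 alternatives. Rora, which encodes an activator of Arntl, gave 101 and 163, a difference of 0.78 ± 0.21 (spot error).

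The proteins that modify or degrade the clock repressors were represented by 6 screened genes of kinases and ubiquitin ligases, and none passed 2-fold. Over all screened genes 3.46% were 2-fold or more higher and 4.28% lower, so that lists as short as this and the next would often hold none. The casein kinase genes Csnk1d and Csnk1e, whose products phosphorylate PER proteins, differed by 0.31 and 0.46 on the log2 scale. Gsk3b, which encodes another kinase of the clock proteins, differed by 0.0051. None of the 9 screened cofactors passed 2-fold either, with a median log2 difference of 0.08 and a range from -0.09 to 0.24. Among them were Timeless at -0.05, Tipin at -0.09 (by a probe with 6 alternating A and G bases), Sirt1 at 0.21 and Nono at 0.08.

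Among the clock-controlled output genes, 2 of 9 screened genes were 2-fold or more higher, beside 3.46% of all screened genes. Cdkn1a, which encodes the cell cycle inhibitor p21 and is induced by many stresses, gave 230 on the C array and 514 on the RS array, a log2 difference of 1.26 ± 0.07. (spot error) Coq10b, which encodes a coenzyme Q binding protein, gave 809 and 2455, a difference of 1.70 ± 0.20 (spot error). The outputs Wee1, Nampt, Usp2 and Por differed by -0.02, 0.27, -0.11 and -0.28, and the only Por probe held a run of 7 alternating A and G bases. The list median was 0.05 against 0.016 over all screened genes.

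The cAMP and glucocorticoid routes are known to reach Per1 and were listed beside the clock, also with earlier results of these data known. Of 10 screened genes around cAMP and CREB, only Crem was past 2-fold by its brightest probe. Over all screened genes, 3.46% were 2-fold or more higher and 4.28% were 2-fold or more lower. Crem, whose short product ICER is a cAMP-induced repressor, gave 688 on the C array and 7049 on the RS array, 11.0-fold higher, with a log2 difference of 3.46 ± 0.20. (spot error) Sik1, a CREB-induced kinase gene that limits Per1 induction, differed by 0.79 at a probe with a run of 6 alternating A and G bases and by 0.84 at a probe without one. Pde4d, which encodes a cAMP phosphodiesterase, differed by -0.51 at its brightest probe and by 2.02 to 2.36 at its other 5 probes, so that its direction depended on the probe. Of 7 screened genes around the glucocorticoid receptor, 4 were 2-fold or more higher: Errfi1 at 3.43, Dusp1 at 2.24, Tsc22d3 at 1.19 and Klf9 at 1.11 on the log2 scale, beside 3.46% of all screened genes. With the normexp correction Klf9 was under 2-fold, at 0.93. Fkbp5 differed by 0.76, Sgk1 by 0.03 and the receptor gene Nr3c1 by 0.08. With 1 difference per gene, these arrays do not tie Per1 to either route.

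Markers of some other cells moved with the groups, and those of others did not pass 2-fold. Both are given for every difference above. In bulk tissue, fewer cells of a type and less RNA per cell cannot be told apart. Of 8 screened adipocyte markers, 7 were 2-fold or more higher on the RS array, beside 3.46% of all screened genes. The summed intensities of all 10 adipocyte markers were 6949 (C) and 18595 (RS), including Plin1 and Pck1, which were not well above background. All 5 screened erythrocyte markers were 2-fold or more higher. The sums of all 6, including Slc4a1, which was not well above background, were 9970 and 55834. The neutrophil genes S100a8 and S100a9 were higher, while Mpo and Elane were not well above background. The sums of all 4 neutrophil genes were 67.4 and 760. None of the 7 T cell, 5 B cell, 5 macrophage and 4 endothelial markers passed 2-fold, and their median log2 differences were -0.16, 0.10, -0.24 and -0.05. Of the T cell markers, 1 of 7 lay above 0, and Cd5 at -0.97, Lck at -0.58 and Cd8a at -0.52 differed by as much as Arntl or more. The labelled tissue thus carried the lymphocyte markers on both arrays. Of 4 markers each, 2 of muscle and 3 of salivary gland were not well above background, and no reference gene of 10 passed 2-fold. The part of the cell makeup in the differences of the clock genes was not tested.

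Promoter sequences were read from RefSeq (GRCr8), as the 250 bases before and 50 bases after a start site, and 9 of the 10 genes had a window. They were searched on both strands for the E-box CACGTG, the noncanonical E-box CACGTT, the D-boxes TTATGTAA and TTATGCAA, the ROR element TAGGTCA at which the REV-ERB proteins also bind, the cAMP response element TGACGTCA and its core TGACG, and the glucocorticoid element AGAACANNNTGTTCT with its single site TGTTCT. The core and the single site lie within the full elements, and CACGTT was added after the sequences had been seen. Of 33469 windows, 6.42% held the E-box, 4.83% the noncanonical E-box, 1.73% a D-box, 2.63% the ROR element, 1.83% the cAMP response element and 0.0149% the glucocorticoid element. The shorter TGACG and TGTTCT were common, in 21.2% and 20.7% of windows.

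Sequences are shown for Per2, which was higher on the RS array, and for Arntl and Nr1d1, whose differences lay below 0, that of Nr1d1 within the 95% range of its spot error. Capitals mark the motifs. Where a window reached into the gene as RefSeq spans it, only the bases before the gene or 30 bases around a motif are shown.
Per2, before the gene, chr9:99497070-99497243, minus strand: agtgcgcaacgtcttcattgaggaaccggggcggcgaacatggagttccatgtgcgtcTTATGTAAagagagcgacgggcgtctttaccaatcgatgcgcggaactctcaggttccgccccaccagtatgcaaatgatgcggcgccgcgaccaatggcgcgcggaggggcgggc
Per2, at the noncanonical E-box, chr9:99497038-99497067, minus strand: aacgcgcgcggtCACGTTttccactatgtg
Arntl, at the ROR element, chr1:176766300-176766329, plus strand: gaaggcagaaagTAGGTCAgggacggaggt
Nr1d1, at the E-box of window 1, chr10:84229628-84229657, minus strand: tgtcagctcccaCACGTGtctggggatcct
Nr1d1, window 2, before the gene, chr10:84231813-84232062, minus strand: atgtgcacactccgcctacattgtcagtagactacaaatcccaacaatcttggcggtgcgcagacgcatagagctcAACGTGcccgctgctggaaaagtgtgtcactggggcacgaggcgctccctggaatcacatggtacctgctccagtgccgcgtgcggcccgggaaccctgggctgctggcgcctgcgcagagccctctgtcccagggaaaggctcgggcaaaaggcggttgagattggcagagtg

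The Per2 window held a D-box at -192 and a noncanonical E-box at -62 from the start site. The Arntl window held the ROR element at -16. Of the 2 Nr1d1 windows, 1 held an E-box at -191 and the other a noncanonical E-box, read as AACGTG, at -174. Cry2 also held AACGTG, at -212. The core TGACG was found on either strand at 39 in Per2 and Nr1d2, past the start site, and at -164 in Per3, and TGTTCT at -70 in 1 of the 2 Clock windows. The Per1 window held none of the motifs, and its start site lay 5374 bases inside the gene, so that it is not the promoter at the beginning of Per1. Likewise, the start site lay 2358 bases inside the gene for the Nr1d1 window with the E-box and 37798 for the Clock window with TGTTCT. For the Per3 window it lay 443 bases inside. These windows are therefore not at the beginning of their genes either. The start site also lay 76 bases inside the gene for Per2 and 106 for Arntl. The noncanonical E-box of Per2 and the ROR element of Arntl thus lay within the genes as RefSeq spans them. No window of a clock gene held the full cAMP response element or the glucocorticoid element. These matches describe the letters of the windows and not binding, and the arrays did not measure binding.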

How the data were processed

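Cervical lymph node RNA of 1 C and 1 RS sample was labeled with Cy3 and hybridized to Agilent rat arrays of 1 slide, read in 1 scan. Per the labels and file headers, the authors extracted the spots with Agilent Feature Extraction 11.5.1.1, and the deposited intensity values are background-subtracted within each array and not normalized between arrays. A further deposited file holds 1 log2 value for each probe. Its values lay within 0.1 of the log2 intensity minus the 75th percentile of its array for 100% of 45598 probes, and it was used as an alternative. Its column medians were -3.52 (C) and -3.55 (RS).

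The scan recorded in the file headers predates the period of experiments that the paper gives. The labels do not give the restraint time, and the array comparison of the paper is of its shortest restraint group. Control spots and outlier spots (489 for C, 660 for RS) were dropped, repeat spots were averaged on the log2 scale, and each array was scaled by subtracting its 75th percentile over probes. A probe was well above background where over 50% of its spots carried that mark, as for 54.7% of probes on the C array and 54.9% on the RS array. The brightest probe by mean signal stood for a gene, and a bound replaced the fold where 1 array was dim. The fold threshold was 2, as in the paper. The number of arrays limits the precision, and no p-value was computed.

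The members and lists were chosen with earlier results of these data known. All clock genes were named with every probe, with the listed genes past 2-fold and up to 4 more of each clock list, and some that this rule selects are not reported here. Names are those of the array design. All 10 clock genes matched the RefSeq table, where Arntl is named Bmal1. For 12 alternatives and 1 added after the data had been seen, all results were recomputed. The steps were tested on simulated arrays. Python 3.11.15 (numpy 2.4.6, pandas 2.3.3, matplotlib 3.10.9) and R 4.3.3 (limma 3.58.1) were used.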

Additional observations from a re-analysis of the deposited data

How the results depend on the processing

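The count of clock genes 2-fold or more higher was 2 under 11 of 12 alternatives and under the one added later, and 1 with the normexp background correction, where Per1 stayed past 2-fold and Per2 did not. Alternatives that only changed the background filter could not alter the values of Per1 or Per2. The count of clock genes 2-fold or more lower was 0 in every setting run. The median log2 difference of the clock genes was 0.33 when the probes of a gene were averaged, where Clock was at 0.53 through a probe at background in C, and stayed above 0 in all other settings, from 0.020 without normalization to 0.18. Leaving out probes with runs of alternating A and G bases, an alternative chosen after seeing the data, removed Arntl and gave a median of 0.18 over the other clock genes, and of the other network genes it removed Npas2, Tipin and Por. Over all screened genes, the counts of genes 2-fold or more higher and lower were 730 and 903, and they were 234 and 378 with normexp, 716 and 498 without such probes, 493 and 601 for genes well above background on both arrays, and 2031 and 2148 without a filter. No paired analysis was possible because only 1 array was made for each group. With 1 array per group, the spread between animals is not known, and differences of dim probes such as those of Clock and Nr1d1 rest on signals near background.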
